A study of Mus musculus with 10 samples.

Results

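Here 9 genes of the tumour necrosis factor (TNF) family were followed across the 5 groups of the series: the receptors Tnfrsf13b, Tnfrsf13c, Cd40, Cd27, Fas and Ltbr, and the ligands Lta, Ltb and Tnf. The 9 genes were taken as a named list, by symbol, from 30205 genes to which the deposited transcripts were summed, and each of the 9 was among the 15583 genes that passed the filter on low counts. Cells of the B lineage had been sorted from C57BL/6 mice and gave 10 RNA libraries, 2 per group, to ask what activation of NF-kB and of Notch does to these cells, alone and together. Control libraries came from mice labelled wild type. NF-kB-activated libraries carried Rosa-NIKdeltaT3flSTOP, an allele of the NF-kB-inducing kinase encoded by Map3k14, opened by CD19Cre, a recombinase expressed in the B lineage. Notch-labelled libraries carried Rosa-Notch2ICN, which encodes the intracellular part of Notch2, with CD19Cre. Doubly activated and lymphoma libraries carried both Rosa alleles with CD19Cre. The labels call control, doubly activated and NF-kB-activated cells precursors of marginal zone B cells from lymph node, Notch-labelled ones marginal zone B cells from the same tissue, and the last group lymphoma cells of lymphoma tissue. No label gives age or sex. The Y-linked gene Ddx3y stood at 59.8 and 0.653 CPM in control, 2.4 and 1.88 CPM in Notch-labelled and 110 to 187 CPM in the other 6 libraries, so the control libraries differ in the sex of their source, at least in part, and sex and group cannot be told apart for the Notch-labelled ones. Whether both libraries of a group stem from different mice is not said. A p-value therefore reflects the spread between the 2 libraries of a group, pooled over the 5 groups in 1 model. Outside the control group that spread may be technical.

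TNF family ligands act as trimers on the cell surface or in solution, and their receptors signal through TRAF adaptors to the NF-kB and MAP kinase pathways or, where they carry a death domain, to caspases. Tnfrsf13c encodes the BAFF receptor, on which the survival of mature B cells depends, and Tnfrsf13b encodes TACI, which binds BAFF and APRIL. CD40 receives help from T cells, and CD40, the BAFF receptor and the lymphotoxin beta receptor are the receptors best known for the noncanonical NF-kB pathway, in which TRAF3, TRAF2 and the cellular inhibitors of apoptosis keep NIK low until a receptor is engaged. B cells are a main source of the lymphotoxins encoded by Lta and Ltb, which organise the stroma of lymph nodes and spleen through the lymphotoxin beta receptor, a protein known from stromal and myeloid cells rather than lymphocytes.

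Libraries held 16380889 to 23102081 estimated counts. Levels are given as CPM, estimated counts scaled to a common library total by TMM, which compare 1 gene between libraries, while a difference is a log2 fold change with its SE and the adjusted p of edgeR's quasi-likelihood test over 15583 genes, called at 0.05. The Notch-labelled and lymphoma libraries stood apart: Pearson correlations of log2 CPM across genes were 0.989 to 0.995 within groups, 0.865 to 0.892 for pairs of 1 Notch-labelled and 1 other library, and 0.912 to 0.925 for pairs of 1 lymphoma and 1 precursor library. One heavy chain V segment, Ighv1-55, held 92.9% and 94% of V segment counts in the Notch-labelled libraries. Another, Ighv1-11, held 92.5% and 92.3% in the lymphoma libraries, and the top segment elsewhere held 5.04% to 7.39%. In each of these 2 groups both libraries thus shared their main segment. They may stem from 1 clone or 1 mouse, which was not tested, so differences of these groups may describe 1 source each. Notch2 did not rise by the test against control in any group labelled with its allele: it stood at 284 and 278 CPM in Notch-labelled, 702 and 753 CPM in doubly activated and 155 and 179 CPM in lymphoma libraries against 652 and 690 CPM in control, which goes against these labels as far as this count reflects the transgene. The Notch target Heyl stood at 50.9 and 44.1 CPM, 23.3 and 25.6 CPM, and 38.9 and 44 CPM in these groups against 0.43 and 0.38 CPM. The summed level of 8 stroma markers was 655 to 885 CPM in the Notch-labelled libraries, with 0 of the 8 at 0, against 1.5 to 3.89 CPM in the other 4 groups, where 2 to 5 of the 8 were at 0 in both libraries. Summed B cell markers were 3666 to 3918 CPM in Notch-labelled, 5890 to 6137 CPM in lymphoma and 10779 to 13152 CPM in precursor libraries. Some markers of the list went the other way. Pax5 stood at 410 and 378 CPM in Notch-labelled against 251 and 256 CPM in control libraries. Blk stood at 752 and 712 CPM in Notch-labelled and 939 and 880 CPM in lymphoma against 639 and 626 CPM in control libraries. Cr2, a B cell marker of the list that is high in marginal zone B cells but not confined to them, was at 111 and 110 CPM in the Notch-labelled libraries. It was at 28.5 and 23.3 CPM in the lymphoma libraries. In the precursor libraries it was at 1874 to 2940 CPM. In these bulk libraries, fewer cells of a type and less RNA per cell cannot be told apart.

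**Figure D1:**
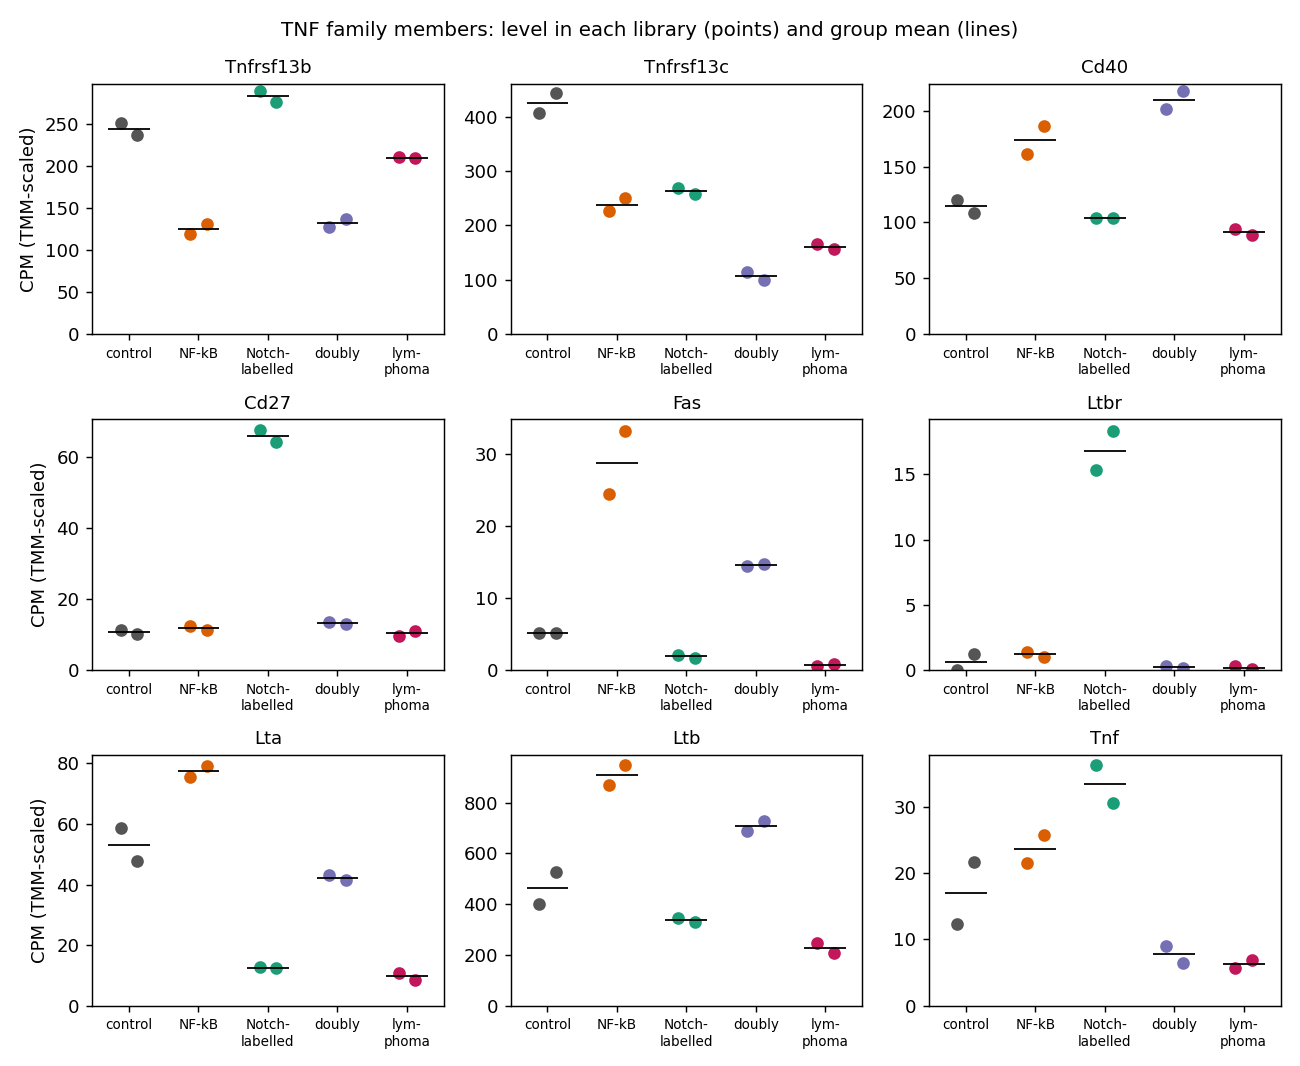
Level of each of the 9 TNF family genes in CPM (vertical axes, linear, starting at 0) in the 10 libraries. Points are libraries, horizontal lines the mean of the 2 libraries of a group; Cd27 and Ltbr stand out in Notch-labelled libraries, and Fas and Ltb are highest in NF-kB-activated libraries.

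Both genes for receptors of BAFF, Tnfrsf13b and Tnfrsf13c, were lower in precursor cells with the NIK allele than in control cells. Tnfrsf13b stood at 251 and 236 CPM in control, 119 and 131 CPM in NF-kB-activated, 290 and 276 CPM in Notch-labelled, 127 and 137 CPM in doubly activated and 211 and 209 CPM in lymphoma libraries. The 2 groups of precursor cells with the NIK allele overlapped and lay below the other 3 groups. Tnfrsf13b fell by 0.96 ± 0.08 (log2, adjusted p = 6.14e-06) with NIK alone and by 0.88 ± 0.08 (adjusted p = 1e-05) with both alleles, and did not pass the test between these 2 groups (0.08 ± 0.08, adjusted p = 0.546). It rose by 0.67 ± 0.08 (adjusted p = 1.85e-05) from doubly activated to lymphoma cells. The step from control to Notch-labelled libraries, 0.22 ± 0.08 (adjusted p = 0.0285), depended on the fit: adjusted p was 0.0656 with only these 2 groups and 0.223 without control library 2, and the difference was 0.97 (adjusted p = 1.29e-05) once effective transcript length was an offset.

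That dependence on length had a counterpart in the transcripts of Tnfrsf13b. TPM, the authors' level per transcript length, was 217 and 219 in control and 483 and 435 in Notch-labelled libraries. The longest transcript, Tnfrsf13b-201 (2556 bases), held 22.1% to 25.7% of the TPM of the gene in Notch-labelled libraries and 46% to 58.8% in the other 8. The short transcript Tnfrsf13b-207 (364 bases) held 29.6% to 31.3% in Notch-labelled libraries and 8.46% to 21.3% in the other 8. These shares are the authors' assignment of reads to overlapping transcripts, and by estimated counts Tnfrsf13b-201 held a mean of 80.9% over the 10 libraries, against 46.1% by TPM.

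**Figure D2:**
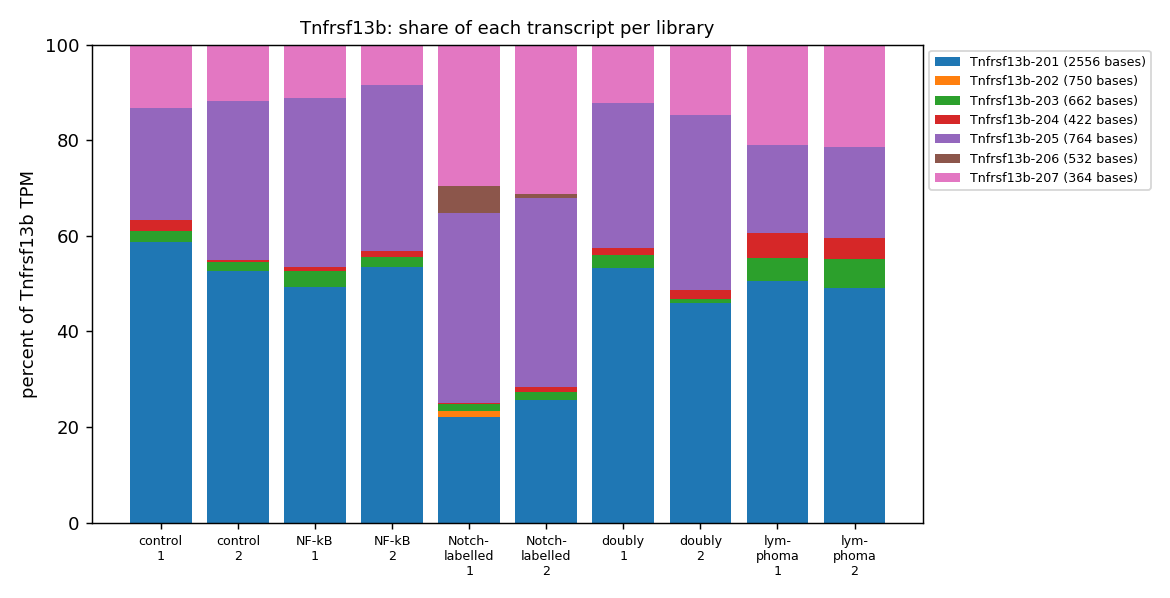
Percent of the TPM of Tnfrsf13b (vertical axis) held by each of its 7 transcripts in each library (horizontal axis: group and library number), with transcript length in the key. The blue segment, Tnfrsf13b-201, is smaller in both Notch-labelled libraries (22.1% and 25.7%) than in the other 8.

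Tnfrsf13c, which encodes the BAFF receptor, stood at 407 and 444 CPM in control, 227 and 250 CPM in NF-kB-activated, 269 and 257 CPM in Notch-labelled, 115 and 98.8 CPM in doubly activated and 166 and 157 CPM in lymphoma libraries. Control libraries were above the libraries of the other 4 groups, and doubly activated libraries were below them. Against control it fell by 0.83 ± 0.09 (adjusted p = 5.54e-05) with NIK alone, by 0.69 ± 0.09 (adjusted p = 2.61e-05) in Notch-labelled and by 1.99 ± 0.09 (adjusted p = 4.44e-08) in doubly activated libraries. Adding the Notch2 allele to the NIK allele was accompanied by a further difference of -1.16 ± 0.09 (adjusted p = 1.41e-05), and lymphoma libraries were higher than doubly activated ones (0.59 ± 0.09, adjusted p = 0.000168). NF-kB-activated and Notch-labelled libraries did not pass the test between them (0.14 ± 0.09, adjusted p = 0.184).

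In precursor cells with the NIK allele Cd40 changed in the opposite direction to the receptors for BAFF. It stood at 120 and 109 CPM in control, 162 and 186 CPM in NF-kB-activated, 104 CPM in each Notch-labelled library, 201 and 218 CPM in doubly activated and 94.4 and 88.6 CPM in lymphoma libraries. The 4 precursor libraries with the NIK allele were the 4 highest. Cd40 rose by 0.60 ± 0.09 (adjusted p = 0.00062) with NIK alone and by 0.87 ± 0.09 (adjusted p = 3.04e-05) with both alleles, and fell by 1.20 ± 0.09 (adjusted p = 3.77e-07) in lymphoma cells. Its higher level with both alleles than with NIK alone did not pass the test (0.27 ± 0.09, adjusted p = 0.0661), although the values did not overlap; DESeq2 gave an adjusted p of 0.0387. Control, Notch-labelled and lymphoma levels lay close together, and of the 3 pairs among them lymphoma against control passed (-0.32 ± 0.09, adjusted p = 0.0093), a call lost without control library 1 (adjusted p = 0.0588) or lymphoma library 2 (adjusted p = 0.0644).

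Fas, the death receptor that binds Fas ligand, had the widest range among the members with counts in every library. It stood at 5.1 and 5.17 CPM in control, 24.4 and 33.1 CPM in NF-kB-activated, 2.05 and 1.68 CPM in Notch-labelled, 14.4 and 14.7 CPM in doubly activated and 0.555 and 0.831 CPM in lymphoma libraries. No 2 groups overlapped, and each of the 10 pairs of groups passed the test; the highest group mean was 41.5 times the lowest. Fas rose by 2.48 ± 0.21 (adjusted p = 8.33e-06, 5.59-fold) with NIK alone and by 1.50 ± 0.21 (adjusted p = 0.000338) with both alleles. The doubly activated level was lower than with NIK alone by -0.98 ± 0.20 (log2, adjusted p = 0.00652), which no longer passed without NF-kB-activated library 2 (adjusted p = 0.116) or doubly activated library 2 (adjusted p = 0.0643). From doubly activated to lymphoma cells, which share a genotype, Fas fell by 4.38 ± 0.27 (adjusted p = 5.14e-08), 20.9-fold, to 12 and 17 estimated counts.

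Cd27, a costimulatory receptor for CD70 known from T cells and memory B cells, was high in the Notch-labelled libraries alone among the 5 groups. It stood at 11.3 and 10.1 CPM in control, 12.4 and 11.2 CPM in NF-kB-activated, 67.8 and 64.2 CPM in Notch-labelled, 13.5 and 13.1 CPM in doubly activated and 9.67 and 11 CPM in lymphoma libraries. It was 6.18-fold higher in Notch-labelled than in control libraries (2.63 ± 0.13, adjusted p = 6.66e-09). Of the 6 pairs among the other 4 groups, lymphoma against doubly activated passed (-0.37 ± 0.13, adjusted p = 0.0328) and was lost in 10 of 21 alternatives, among them DESeq2 (adjusted p = 0.0798) and leaving out lymphoma library 1 (adjusted p = 0.165). Of its 6 transcripts, 3 have a retained intron. Cd27-204 held 12.2% to 15.8% of the TPM of the gene in Notch-labelled and 16.4% to 33.3% in the other 8 libraries, and Cd27-205 held 3.49% to 3.9% and 11.4% to 30.2%. Cd27-206 did not separate them, with 17.7% to 17.8% and 11.5% to 34.1%. The coding transcript Cd27-202 (832 bases) held 23.9% to 24.7% in Notch-labelled and 0% to 13.7% in the other 8 libraries.

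Ltbr, which encodes the lymphotoxin beta receptor, was near 0 in B lineage libraries other than the Notch-labelled ones. It stood at 0 and 1.2 CPM in control, 1.42 and 0.995 CPM in NF-kB-activated, 15.3 and 18.3 CPM in Notch-labelled, 0.334 and 0.131 CPM in doubly activated and 0.278 and 0.0489 CPM in lymphoma libraries. These levels rest on 307 and 370 estimated counts in the Notch-labelled libraries and on 0 to 27 in the other 8, which overlapped except between NF-kB-activated and the doubly activated and lymphoma groups. Ltbr was higher in Notch-labelled than in control libraries by 4.75 ± 0.89 (adjusted p = 0.00156), and by 11.28 (adjusted p = 2.32e-06) without control library 2, which leaves a control at 0 counts, so the fold is not fixed by these data. Among the other 4 groups edgeR called 0 of 6 pairs, with 1 at an unadjusted p under 0.05, and DESeq2 and limma-voom called 0 each. The SE of a pair there was as large as 1.45, and calls depended on the fit. With only the compared groups in the fit Ltbr was lower in lymphoma (adjusted p = 0.00604) and in doubly activated libraries (adjusted p = 0.0365) than in NF-kB-activated ones, and with the length offset the former passed as well (adjusted p = 0.0311). Other calls appeared when a control library was left out (NF-kB-activated against control, adjusted p = 0.00483 without control library 2; lymphoma against control, adjusted p = 0.00352 without control library 1).

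Ltbr and Cd27 were highest in the group that was highest in stroma markers. Its 2 libraries held 655 and 885 CPM of stroma markers, 15.3 and 18.3 CPM of Ltbr, and 67.8 and 64.2 CPM of Cd27. With 2 libraries no trend can be read from these values. Col1a2 stood at 391 and 534 CPM and Dcn at 5.7 and 8.36 CPM in Notch-labelled libraries, while Dcn was at 0 in the other 8 libraries. Tnfrsf1a, the widely expressed receptor for TNF, followed the same split: it stood at 45 and 49.3 CPM in Notch-labelled libraries and at 0.44 to 3.57 CPM in the other 8 (4.42 ± 0.47 against control, adjusted p = 3.09e-05). The lymphoid-expressed TNF receptor Tnfrsf1b stood at 52.9 and 53.7 CPM in Notch-labelled, 39.4 and 49.7 CPM in control and 19.3 to 35.7 CPM in the other libraries. Summed T cell markers were 367 to 368 CPM in Notch-labelled libraries against 45.6 to 97.3 CPM in precursor libraries, with Thy1, also known from stromal cells, making up 257 and 248 CPM of it. Other genes of that list went both ways. Cd8a stood at 11.4 and 13.6 CPM against 5.23 and 5.88 CPM in control, and Cd3e at 6.45 and 5.09 CPM against 1.72 and 3.59 CPM. Cd3g, Lck and Lat were above both control libraries too. Cd4 stood at 2.3 and 2.77 CPM against 4.37 and 5.93 CPM and Cd28 at 1.7 and 1.48 CPM against 2.77 and 3.1 CPM. Cd3d and Trac were also below both control libraries. In lymphoma libraries Thy1, at 879 and 830 CPM, made up nearly all of the T cell sum of 856 to 905 CPM. The other genes of that list lay below both control libraries there, save Cd28, which overlapped them (3.01 and 2.25 CPM). The part of stromal or T cell RNA in the levels of Ltbr, Tnfrsf1a and Cd27 was not tested.

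**Figure D3:**
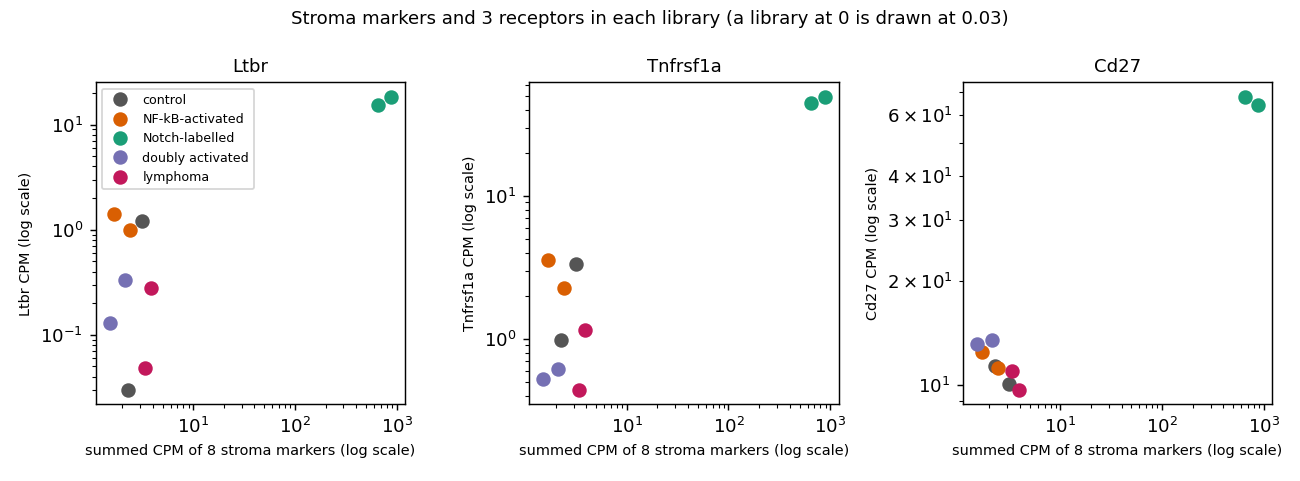
Levels of Ltbr, Tnfrsf1a and Cd27 (vertical axes, CPM, log scale) against the summed CPM of 8 stroma markers (horizontal axes, log scale), 1 point per library, coloured by group. Both Notch-labelled libraries lie at 655 and 885 CPM of stroma markers and at the top for each of the 3 receptors; the other 8 libraries lie at 1.5 to 3.89 CPM.

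The 3 ligand genes are neighbours on mouse chromosome 17 (GRCm38, GENCODE M21). Ltb lies at chr17:35194439-35196320 on the plus strand, Tnf at chr17:35199381-35202007 and Lta at chr17:35203165-35205351 on the minus strand, with 3060 bases between Ltb and Tnf and 1157 bases between Tnf and Lta. NF-kB binds motifs of known shape, and their part in the differences between these neighbours was not tested. The upstream sequences of the 3 genes are shown as a description. They were taken from RefSeq (GRCm38.p6), 5′ to 3′ on the strand of each gene, and end just before the annotated start of transcription in GENCODE; 8 of the 9 members were matched in the promoter table used here, all but Cd40. Capitals mark a match to the NF-kB-like motif GGGANNTTC, searched on both strands.
Ltb, chr17:35194257-35194438, plus strand: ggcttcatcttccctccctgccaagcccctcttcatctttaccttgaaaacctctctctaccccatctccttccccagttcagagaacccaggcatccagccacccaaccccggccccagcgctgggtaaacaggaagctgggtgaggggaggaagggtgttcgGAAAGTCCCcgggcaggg
Tnf, chr17:35202008-35202257, minus strand: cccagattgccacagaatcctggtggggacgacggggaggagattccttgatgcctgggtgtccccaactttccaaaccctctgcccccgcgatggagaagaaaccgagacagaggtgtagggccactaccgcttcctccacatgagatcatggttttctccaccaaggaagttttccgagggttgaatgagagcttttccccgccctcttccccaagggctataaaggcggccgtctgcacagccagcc
Lta, chr17:35205352-35205601, minus strand: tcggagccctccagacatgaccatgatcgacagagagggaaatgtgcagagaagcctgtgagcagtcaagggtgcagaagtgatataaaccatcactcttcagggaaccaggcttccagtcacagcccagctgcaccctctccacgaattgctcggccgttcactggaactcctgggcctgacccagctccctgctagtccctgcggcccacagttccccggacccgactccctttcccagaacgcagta
Over windows of 250 bases before to 50 after each RefSeq start, the motif matched in 2 of 8 members, Ltb and Tnf, and in 1295 of 32851 promoters (3.94%). The match in Ltb begins 86 bases before the RefSeq start and is shown in capitals as read on the gene's strand; the match in Tnf begins 4 bases after the start, outside the stretch shown. The motif GTGGGAA, which the Notch partner Rbpj binds, matched in 0 of 8 members and in 2097 promoters (6.38%). A match of letters is a description and not a binding site.

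Ltb, which encodes lymphotoxin beta, was the highest of the 9 members per length in each group: its mean TPM made up 44.5% of the members' summed TPM in control, 64.1% in NF-kB-activated, 33.3% in Notch-labelled, 62.2% in doubly activated and 39.6% in lymphoma libraries. It stood at 400.1 and 526 CPM in control, 871 and 949 CPM in NF-kB-activated, 347 and 328 CPM in Notch-labelled, 689 and 728 CPM in doubly activated and 247 and 209 CPM in lymphoma libraries. No 2 groups overlapped; the precursor libraries with the NIK allele were highest and lymphoma libraries lowest. Ltb rose by 0.97 ± 0.12 (adjusted p = 0.000215) with NIK alone and by 0.61 ± 0.12 (adjusted p = 0.00416) with both alleles. It fell by 1.63 ± 0.13 (adjusted p = 6.19e-07) from doubly activated to lymphoma cells. The difference between both alleles and NIK alone did not pass (-0.36 ± 0.12, adjusted p = 0.0725), though it did with only these groups in the fit (adjusted p = 0.0107). The fall of 0.46 ± 0.12 in Notch-labelled libraries (adjusted p = 0.00636) was lost without Notch-labelled library 2 (adjusted p = 0.0502) and was -0.28 without control library 2.

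Lta, which encodes lymphotoxin alpha, the partner of lymphotoxin beta in the membrane-bound trimer, was lowest in the 2 groups that stood apart. It stood at 58.7 and 47.7 CPM in control, 75.5 and 79.2 CPM in NF-kB-activated, 12.8 and 12.3 CPM in Notch-labelled, 43.3 and 41.4 CPM in doubly activated and 11 and 8.55 CPM in lymphoma libraries. No 2 groups overlapped. Lta rose by 0.54 ± 0.12 (adjusted p = 0.00907) with NIK alone, a call lost without control library 2 (adjusted p = 0.0595) or NF-kB-activated library 2 (adjusted p = 0.0749). It fell by 2.08 ± 0.13 (adjusted p = 6.07e-08) in Notch-labelled libraries, by 0.87 ± 0.12 (adjusted p = 0.000798) from NIK alone to both alleles, and by 2.12 ± 0.14 (adjusted p = 8.78e-08) from doubly activated to lymphoma cells. With both alleles it did not differ from control by the test (-0.33 ± 0.12, adjusted p = 0.0874); without control library 2 it did (adjusted p = 0.0255).

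Tnf parted from its neighbours in Notch-labelled libraries, where it rose against control while Lta and Ltb fell. In lymphoma cells it was lower than in control, as Lta and Ltb were. It stood at 12.4 and 21.6 CPM in control, 21.5 and 25.7 CPM in NF-kB-activated, 36.2 and 30.6 CPM in Notch-labelled, 9.08 and 6.41 CPM in doubly activated and 5.69 and 6.94 CPM in lymphoma libraries. Control overlapped NF-kB-activated, doubly activated overlapped lymphoma, and Notch-labelled libraries were highest. Tnf rose by 0.97 ± 0.24 (adjusted p = 0.00507) in Notch-labelled libraries, 0.62 (adjusted p = 0.0227) without control library 1, and fell by 1.60 ± 0.26 (adjusted p = 0.00304) from NIK alone to both alleles. Its lower level with both alleles than in control (-1.13 ± 0.26, adjusted p = 0.0124) was lost without control library 2 (-0.67, adjusted p = 0.0714) or doubly activated library 2 (adjusted p = 0.116). NIK alone gave 0.47 ± 0.25 (adjusted p = 0.255), and 0.94 (adjusted p = 0.0143) without control library 2. Summed macrophage markers, a cell type known to make TNF, were 51.9 to 210 CPM in control, 150 to 208 CPM in NF-kB-activated, 65.6 to 68.1 CPM in Notch-labelled, 24.1 to 48.4 CPM in doubly activated and 83.8 to 85.6 CPM in lymphoma libraries, with 0 of the 10 at 0 throughout a group. In lymphoma libraries Cd68 alone made up 60 and 61.1 CPM of the sum, and the other markers went both ways against doubly activated libraries. Mrc1 (2.96 and 2.54 CPM against 0.445 and 0.589 CPM), C1qb (4.9 and 7.18 CPM against 2.34 and 0.916 CPM) and C1qc lay above them. Csf1r (6.15 and 4.35 CPM) overlapped them (6.63 and 3.4 CPM) and Lyz2 (3.93 and 3.18 CPM) lay below them (20.3 and 7.79 CPM). Their part in the level of Tnf was not tested.

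**Figure D4:**
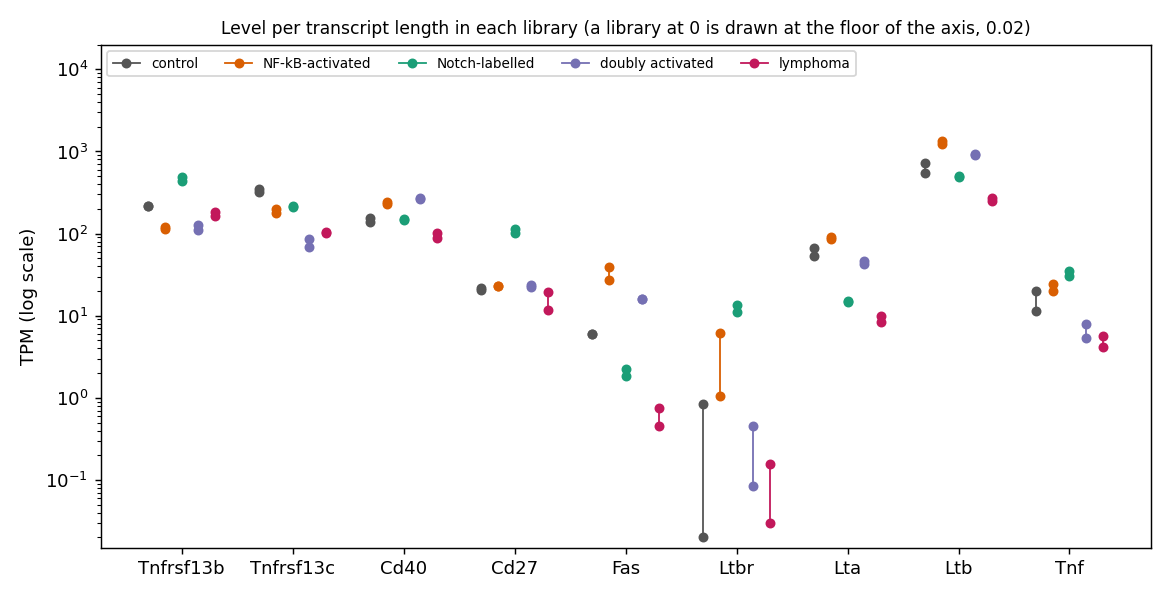
TPM of each member (vertical axis, log scale), a level per transcript length, in the 10 libraries; the 2 libraries of a group share a colour and are joined by a line. Ltb is highest in each group, and Ltbr reaches at most 6.24 TPM outside the Notch-labelled libraries; its control library at 0 is drawn at the foot of the axis.

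Per length the members differed widely. The summed mean TPM of the 9 was 1441 in control, 1997 in NF-kB-activated, 1488 in Notch-labelled, 1468 in doubly activated and 665 in lymphoma libraries. TPM were not scaled by TMM, so sums of different groups are not directly comparable. Mean Cd27, for example, was 15.7 TPM in lymphoma and 21.3 TPM in control libraries, but 10.3 and 10.7 CPM. In control cells the order was Ltb, Tnfrsf13c, Tnfrsf13b, Cd40, Lta, Cd27, Tnf, Fas, Ltbr, from 641 TPM for Ltb and 332 TPM for Tnfrsf13c to 5.96 TPM for Fas and 0.424 TPM for Ltbr. With NIK alone and with both alleles Cd40 came second, at 238 and 268 TPM, while in Notch-labelled and lymphoma libraries Tnfrsf13b came second, at 459 and 173 TPM. The TPM of Ltbr differed between the NF-kB-activated libraries (1.06 and 6.24), where 87.1% of the latter was assigned to a retained-intron transcript of 215 bases, on 2.81 estimated counts.

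NIK activation alone left a mixed picture in the family. Cd40, Fas, Lta and Ltb rose and Tnfrsf13b and Tnfrsf13c fell against control, 4 and 2 of 9 members, where 8.73% of all genes tested rose and 6.60% fell. The median over the 9 was 0.54 (log2) beside 0.00 over all genes. Of 14 other TNF ligands tested 2 rose, and of 19 other receptors 2 fell, among them Ngfr, the low-affinity neurotrophin receptor (4 and 6.85 CPM to 0.577 and 0.471 CPM). Receptor-proximal signalling genes rose in 9 of 24 cases and fell in 1. Among them, Traf1, an adaptor induced by NF-kB, rose from 74.7 and 68.4 CPM to 228 and 230 CPM (1.68 ± 0.08, adjusted p = 7.64e-08). Tank, which binds TRAF adaptors, rose by 1.14 ± 0.10 (adjusted p = 1.05e-05). Tnfaip3, which encodes the NF-kB feedback inhibitor A20, rose by 1.06 ± 0.19 (adjusted p = 0.00563). Map3k14, the endogenous gene whose product the allele supplies, stood at 103 and 130 CPM in control and 220 and 217 CPM in NF-kB-activated libraries, and reads of the transgene cannot be told apart from its own. Birc3, encoding an inhibitor of apoptosis that restrains NIK, rose by 0.38 ± 0.07 (adjusted p = 0.00265) and Traf3 by 0.36 ± 0.08 (adjusted p = 0.00871). Summed neutrophil markers were 138 to 435 CPM in NF-kB-activated and 9.78 to 25.3 CPM in control libraries, with 0 and 1 of 10 at 0, and summed dendritic cell markers 286 to 287 CPM against 104 to 210 CPM, with 0 of 8 at 0. The latter sum followed Fscn1 (162 and 150.4 CPM against 0.861 and 5.22 CPM) and Zbtb46 (39.5 and 41.9 CPM against 1.6 and 3.15 CPM). Flt3 was higher too (16.8 and 11.8 CPM against 3.32 and 5.98 CPM). Ccr7 was lower (59.2 and 73.7 CPM against 92.1 and 180.3 CPM), and Itgax, Clec9a, Siglech and Xcr1 overlapped. The part of these cell types in the differences was not tested.

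With both alleles the members split evenly. Cd40, Fas and Ltb rose against control and Tnfrsf13b, Tnfrsf13c and Tnf fell, 3 and 3 of 9, where 10.5% of all genes rose and 9.29% fell. The median was -0.33 beside 0.00 over all genes. Signalling genes rose in 9 of 24 cases and fell in 3; Tnfaip3 stood at 391 and 613 CPM against 76.5 and 64.2 CPM in control (2.84 ± 0.19, adjusted p = 2.01e-05), and Traf1 at 281 and 307 CPM (2.04 ± 0.08, adjusted p = 1.25e-08). Of the other receptors Tnfrsf1b fell to 24.1 and 20.4 CPM (adjusted p = 0.000242) and Ngfr by 3.51 ± 0.62 (adjusted p = 0.0017), 3 of 19 falling and 1 rising. Of 14 other ligands 2 rose.

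Doubly activated cells were set against NIK-activated cells of the same cell type label to read the Notch2 allele on the NIK background. Tnfrsf13c, Fas, Lta and Tnf fell, 4 of 9, where 7.28% of all genes fell and 6.62% rose; 0 members rose by edgeR, 1 at an unadjusted p under 0.05, 1 by DESeq2 and 0 by limma-voom. The median over the 9 was -0.87 beside 0.00 over all genes. Summed neutrophil markers were 10.4 to 16.5 CPM in doubly activated against 138 to 435 CPM in NF-kB-activated libraries, with 1 and 0 of 10 at 0, and summed macrophage markers 24.1 to 48.4 CPM against 150 to 208 CPM, with 0 of 10 at 0; their part in these falls was not tested. The count of members called ranged from 3 to 7 of 9 when 1 library was left out: it was 7 without control library 1 and 7 without control library 2, each time with 1 rise, and 3 without NF-kB-activated library 2 or doubly activated library 2. In the same comparison 4 of 24 signalling genes rose and 2 fell; among the rises were Tnfaip3 by 1.78 ± 0.19 (adjusted p = 0.000602) and Otulin, which removes linear ubiquitin chains, by 0.48 ± 0.10 (adjusted p = 0.00803). Of the other receptors 3 of 19 rose and 2 fell, among them Tnfrsf1b by -0.65 ± 0.14 (log2, adjusted p = 0.00772).

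Notch-labelled libraries differed from control at 8 of 9 members, in a comparison in which a majority of all genes was called. Tnfrsf13b, Cd27, Ltbr and Tnf rose and Tnfrsf13c, Fas, Lta and Ltb fell, where 34.2% of all genes rose and 29.5% fell, so calls alone say little of the members here. The median was -0.14 beside 0.07 over all genes. Signalling genes fell in 19 of 24 cases and rose in 3: Map3k14 stood at 36.5 and 33.4 CPM (-1.74 ± 0.10, adjusted p = 3.65e-08), Birc3 at 101 and 102 CPM against 247 and 240 CPM (-1.27 ± 0.07, adjusted p = 2.15e-08), and Traf3ip3, which binds TRAF3, fell by 1.39 ± 0.09 (adjusted p = 5.61e-08). Of 14 other ligands 6 rose and 1 fell. Tnfsf9, the ligand of 4-1BB, stood at 26.6 and 23.1 CPM against 1.54 and 2.88 CPM (3.48 ± 0.33, adjusted p = 2.1e-06), Tnfsf14, the ligand LIGHT that binds Ltbr, at 9.25 and 9.49 CPM against 0.184 and 0.49 CPM, and Cd70, the ligand of Cd27, at 6.65 and 5.39 CPM while it had 0 counts in both control libraries. Of 19 other receptors 9 rose and 5 fell. The cell type label differs between these groups as well as the allele, so these cannot be told apart.

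Between doubly activated and Notch-labelled libraries 9 of 9 members passed the test. Cd40, Fas, Lta and Ltb were higher with both alleles and Tnfrsf13b, Tnfrsf13c, Cd27, Ltbr and Tnf lower, where 30.9% of all genes were higher and 33.2% lower. The sizes were 2.96 ± 0.23 for Fas, 1.75 ± 0.13 for Lta, 1.07 ± 0.12 for Ltb and 1.01 ± 0.09 for Cd40 among the rises, with adjusted p of 3.36e-07, 2.5e-07, 1.24e-05 and 9.92e-07. The falls were -6.10 ± 1.01 for Ltbr, -2.31 ± 0.13 for Cd27, -2.10 ± 0.26 for Tnf, -1.30 ± 0.09 for Tnfrsf13c and -1.10 ± 0.08 for Tnfrsf13b, with adjusted p of 0.000747, 1.56e-08, 3.8e-05, 1.42e-07 and 1.65e-07. The fall of Tnfrsf13b was -1.74 with the length offset. Signalling genes were higher with both alleles in 20 of 24 cases and lower in 1 (Fadd, the adaptor of death receptors). The median over the 24 was 0.68 beside -0.02 over all genes.

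**Figure D5:**
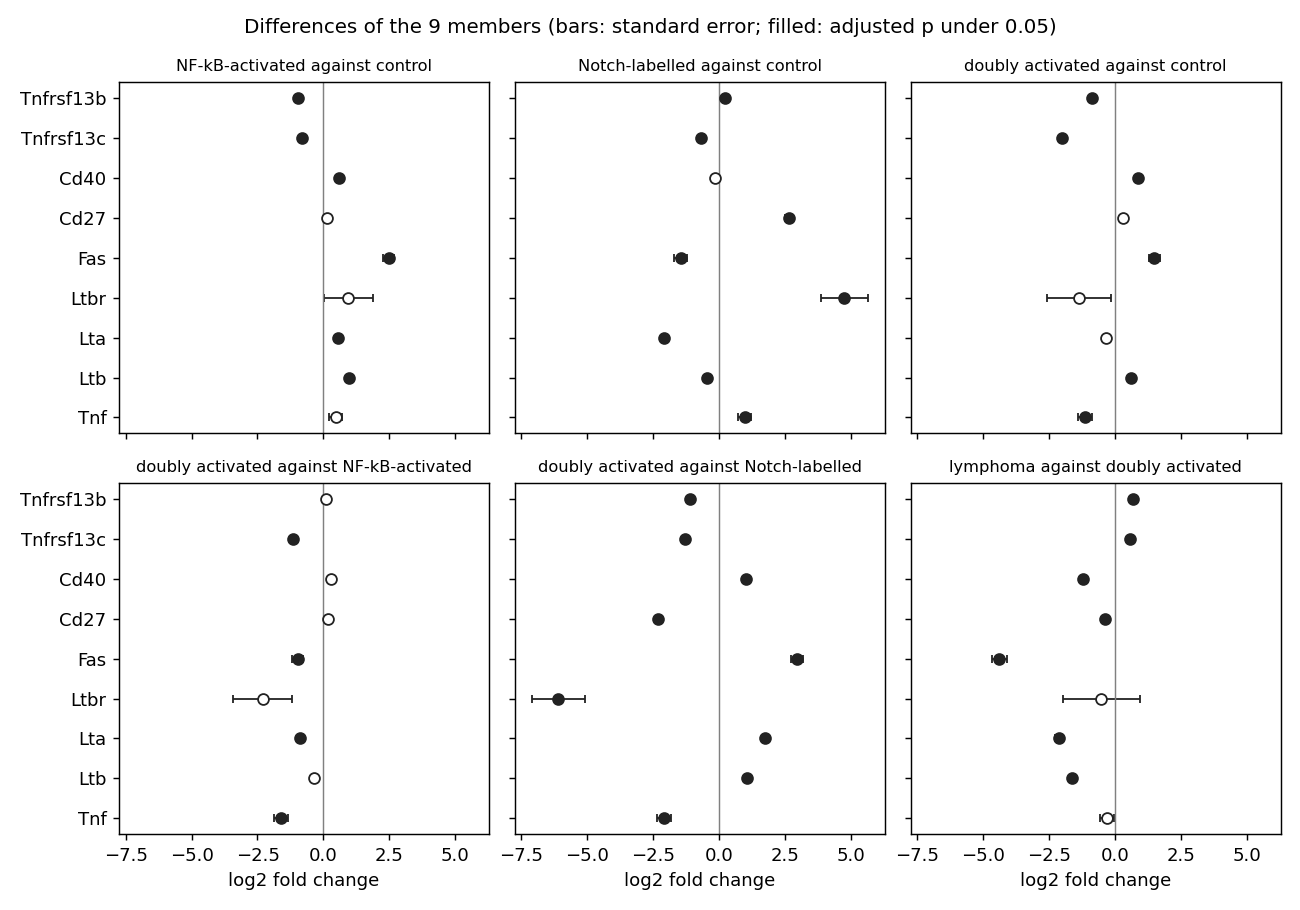
Log2 fold change (horizontal axes) of each member in 6 comparisons, with bars of 1 standard error and filled points where adjusted p was under 0.05. Ltbr has the widest bars; Fas moves to 2.48 with NIK alone and to -4.38 from doubly activated to lymphoma cells.

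In lymphoma cells Cd40, Fas and both lymphotoxins were lower, and Tnfrsf13b and Tnfrsf13c higher, than in the premalignant cells that carry both alleles. Against doubly activated cells of the same genotype Cd40, Cd27, Fas, Lta and Ltb fell and Tnfrsf13b and Tnfrsf13c rose, 5 and 2 of 9, where 25.2% of all genes fell and 26.1% rose. The median was -0.51 beside 0.01 over all genes. Against control 7 of 9 members fell, where 25.6% of all genes fell and 27.8% rose, and 0 members rose by edgeR (0 also at an unadjusted p under 0.05, by DESeq2 and by limma-voom). Those that fell were Tnfrsf13c by 1.40 ± 0.09 (adjusted p = 8.34e-08), Lta by 2.44 ± 0.14 (adjusted p = 2.02e-08), Fas by 2.88 ± 0.28 (adjusted p = 2.49e-06), Tnf by 1.43 ± 0.26 (adjusted p = 0.000936), Ltb by 1.02 ± 0.12 (adjusted p = 2.63e-05), Cd40 by 0.32 and Tnfrsf13b by 0.21. The call of Tnfrsf13b (adjusted p = 0.0362) was lost in 10 of 21 alternatives and the value was -0.05 (adjusted p = 0.685) with the length offset. Against NF-kB-activated libraries 6 members fell and Tnfrsf13b rose, where 26.4% of all genes fell and 26.6% rose, and against Notch-labelled libraries 8 fell, where 32.2% fell and 31.0% rose. Among the last, Lta (-0.36 ± 0.14, adjusted p = 0.0418) was lost without lymphoma library 2 (-0.19, adjusted p = 0.317) and was -0.55 (adjusted p = 0.0136) without lymphoma library 1.

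In lymphoma against doubly activated cells more of the other ligands rose than fell. Of 14 tested, 7 rose and 1 fell, where 26.1% of all genes rose and 25.2% fell, with a median of 1.25 beside 0.01 over all genes. Several of these calls were at low levels. Among the rises Tnfsf4, Fasl, Cd70 and Tnfsf13b had means of 3.59, 0.76, 3.01 and 1.56 CPM in lymphoma, and the fall, that of Tnfsf11, was from 0.214 to 0 CPM. Tnfsf15, the ligand TL1A, stood at 39.6 and 49 CPM against 1.78 and 2.22 CPM in doubly activated cells (4.47 ± 0.30, adjusted p = 1.42e-07) and at or below 0.995 CPM in the other 3 groups. Tnfsf9 stood at 18 and 14.1 CPM against 1.28 and 0.523 CPM (4.11 ± 0.37, adjusted p = 2.13e-06), and Tnfsf8, the ligand of CD30, at 8 and 9.92 CPM against 0.947 and 0.262 CPM (3.84 ± 0.74, adjusted p = 0.0013). Cd70 stood at 2.41 and 3.62 CPM and had 0 counts in both doubly activated libraries. Signalling genes fell in 15 of 24 cases and rose in 3: Traf4, an adaptor of the same family as Traf1, fell by 2.66 ± 0.13 (adjusted p = 1.33e-08), Traf1 by 1.60 ± 0.08 (adjusted p = 1.24e-08) and Tnfaip3 by 1.40 ± 0.18 (adjusted p = 0.000241). Summed plasma cell markers were 3005 to 3050 CPM in lymphoma and 862 to 1007 CPM in doubly activated libraries, with 0 of 6 at 0 in either group. Most of the lymphoma sum was Irf4, Mzb1 and Xbp1. Jchain went the other way, at 46.9 and 44.9 CPM against 66.2 and 65.5 CPM, while the other markers of the list were higher in lymphoma. The part of plasma cell RNA in these differences was not tested.

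The ligand genes of the BAFF receptors, Fas and CD40 were low in each of the 10 libraries, unlike Ltb and Lta, whose products bind the lymphotoxin beta receptor. Tnfsf13b, which encodes BAFF, the ligand of both Tnfrsf13b and Tnfrsf13c, stood at or below 1.9 CPM. Tnfsf13, which encodes APRIL, a ligand of Tnfrsf13b, stood at or below 1.05 CPM, and Fasl at or below 1.3 CPM. Cd40lg, the ligand of CD40, was at or below 0.707 CPM, and Tnfrsf17, a further receptor of this group, at or below 0.37 CPM; both were below the filter and were not tested. Between Notch-labelled and NF-kB-activated libraries, the remaining pair of groups, 3 members were higher in the former and 4 lower, where 33.5% of all genes were higher and 31.0% lower.

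The difference of differences asked whether the Notch2 allele changed a member differently with and without the NIK allele. Of the 9, Cd40 and Lta had a positive and Tnfrsf13c, Cd27, Ltbr and Tnf a negative value, 2 and 4, where 23.9% of all genes were positive and 25.6% negative. Lta was 2.08 lower in Notch-labelled than in control libraries and 0.87 lower with both alleles than with NIK alone, a difference of 1.21 ± 0.18 (adjusted p = 0.000142). Tnf was 0.97 higher in Notch-labelled libraries and moved by -1.60 in NIK-activated cells, a difference of -2.57 ± 0.36 (adjusted p = 0.000163). Cd27 gave -2.46 ± 0.18 (adjusted p = 5.86e-07) and Ltbr -7.05 ± 1.38 (adjusted p = 0.00292), which was -13.59 (adjusted p = 2.9e-06) without control library 2.

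Smaller values were less stable. Tnfrsf13c gave -0.46 ± 0.13 (adjusted p = 0.00932), lost without NF-kB-activated library 2 (adjusted p = 0.0676) or doubly activated library 2 (adjusted p = 0.0535). Cd40 gave 0.41 ± 0.13 (adjusted p = 0.0175), lost with library size alone (0.23, adjusted p = 0.141) and without any of 4 libraries, NF-kB-activated library 1 (adjusted p = 0.0695), Notch-labelled library 1 (adjusted p = 0.0549), Notch-labelled library 2 (adjusted p = 0.0585) or doubly activated library 2 (adjusted p = 0.0626). Tnfrsf13b (-0.13 ± 0.11, adjusted p = 0.348) became -0.84 (adjusted p = 0.000734) with the length offset. Fas (0.48 ± 0.31, adjusted p = 0.226) and Ltb (0.09 ± 0.17, adjusted p = 0.687; -0.0817 with library size alone) did not pass. Signalling genes were positive in 19 of 24 cases and negative in 1. Because the Notch-labelled libraries differ in cell type label and in stroma markers, the allele and these differences cannot be told apart here.

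The genes whose level most resembled each member's over the 10 libraries were found among 10879 genes by Pearson's r of log2(CPM + 1). These points share depth and the 2 groups that stood apart, and r is a description. Sema5a, which encodes a semaphorin, was closest to Fas (r = 0.985) and to Ltb (r = 0.982), with group means of 17.7 CPM in control, 103 in NF-kB-activated, 8.57 in Notch-labelled, 48 in doubly activated and 2.76 in lymphoma libraries. Itpk1 was closest to Cd40 (r = 0.987), Abcc4 to Tnfrsf13b (r = 0.978), Fxyd5 to Tnfrsf13c (r = 0.976), Ifngr2 to Lta (r = 0.993) and Srsf1 to Tnf (r = 0.977). Itga5, an integrin subunit, was closest to Ltbr (r = 0.996) and Nhsl1 to Cd27 (r = 0.995), and both were below 1 CPM on average outside the Notch-labelled libraries. Tnfrsf1a was the third closest to Ltbr (r = 0.993).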

How the data were processed

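RNA was sequenced from sorted cells in 10 libraries of 5 groups. Per the labels' protocols, total RNA was purified on Qiagen RNeasy columns and libraries followed Illumina protocols. The authors deposited, per library, the estimated count and the TPM of 88198 transcripts, which per the submitters' processing notes were made with kallisto 0.44.0 for mm10, with a transcript release not given in the sources used here. Those estimated counts are not normalized, and the TPM are the authors' levels per transcript length.

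Transcripts were matched by identifier to GENCODE M21 (86031 of 88198; the rest held 1.09% to 1.38% of counts) and their counts added up by gene, then rounded. Genes were filtered with filterByExpr (minimum count 10, minimum total 15), scaled by TMM and tested in 1 robust quasi-likelihood model of 5 groups with edgeR 4.0.16 in R 4.3.3 (5 residual degrees of freedom), two-sided, with Benjamini-Hochberg adjustment over 15583 genes. The SE is the log2 fold change divided by the square root of F. The chi-square between the libraries of a group, divided by its degrees of freedom, was 4.48 to 22.1, so replicates differed by more than counting error. The script was tested on simulated data.

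The 9 members, the lists of other ligands (15 genes), other receptors (22 genes) and signalling genes (24 genes), and the cell type markers were chosen with earlier results of these data known. The genes named were the members, their partners, and per list and comparison up to 3 called genes with the largest change, without overlap of the groups and with a mean of 5 CPM or more in 1 of them. Genes chosen after their values were seen were Cr2, Col1a2, Dcn, Thy1, Fadd and the V segments. The other markers named singly from the cell type lists were picked by no rule set beforehand. No replicate block was used: deviations of same-numbered libraries correlated at r = -0.123 to 0.113 across 10376 genes. Alternatives were 22 in number, among them RLE or library size scaling, other filters, DESeq2 1.42.0, limma-voom (limma 3.58.1), an effective length offset, a block and each of 10 libraries left out.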

Additional observations from a re-analysis of the deposited data

Results flagged for a closer look

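For 6 of the 9 genes the difference made by the Notch2 allele was not the same with and without the NIK allele, by edgeR's test of the difference of differences over 15583 genes. These values, on the log2 scale, were -0.46 for Tnfrsf13c (adjusted p = 0.00932), 0.41 for Cd40 (adjusted p = 0.0175), -2.46 for Cd27 (adjusted p = 5.86e-07), -7.05 for Ltbr (adjusted p = 0.00292), 1.21 for Lta (adjusted p = 0.000142) and -2.57 for Tnf (adjusted p = 0.000163). The libraries with the Notch2 allele alone also differ from the rest in cell type label and in the sum of stroma markers, so that neither can be told apart from the allele, and 23.9% and 25.6% of all genes tested had a positive or a negative call of this kind. With 2 libraries per group no library could be tested as standing apart from its group.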

How the results depend on the processing

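Of 99 differences of members, 75 were called and 63 of these kept their call in each alternative that could be fitted; of 2094 alternative values 54 lost and 34 gained a call and 9 changed sign, 0 of them for a called value. Sign changes were those of Ltb in the difference of differences (0.09; -0.0817 with library size alone), of Ltbr in doubly activated against control (0.258 with limma-voom), and of values with 1 library left out. The ranges with 1 library left out were -0.0882 to 0.288 for Ltb, -2.29 to 5.22 for Ltbr in doubly activated against control, -3.49 to 4.71 in lymphoma against control and -2.15 to 0.32 in lymphoma against doubly activated cells, and -0.14 to 0.0362 for Cd27 in lymphoma against control. The number of genes called in doubly activated against control was 3089, and 1983 with only these groups in the fit; against NF-kB-activated libraries it was 2165, and 1392 with the length offset. With 1 library left out, 1435 to 2291 genes were called in NF-kB-activated against control (2389; 1497 and 1435 without NF-kB-activated library 1 or 2), 1624 to 3081 in doubly activated against control and 725 to 2800 in doubly activated against NF-kB-activated libraries, both lowest without doubly activated library 2 (and, for the latter, 1070 and 976 without NF-kB-activated library 1 or 2), and 3 to 7 members in the last. The cause of these changes was not tested. A fit without a library has fewer samples, and its spread is pooled over all groups in it, those not compared included. With library size alone the share of rises among calls was 41.7% in place of 53.1% (doubly activated against control), 34% in place of 47.6% (against NF-kB-activated), 38.1% in place of 48.3% (difference of differences) and 38.8% in place of 49.1% (lymphoma against Notch-labelled), and the median of all genes shifted by 0.105 in Notch-labelled against control or NF-kB-activated, and by -0.174 to -0.176 in doubly activated or lymphoma against Notch-labelled and in the difference of differences. With the replicate block 6, 8, 6, 4, 9, 7 and 6 members were called in the 7 main comparisons, as without it, and 1 other call was lost (Tnfrsf13b in lymphoma against control, adjusted p = 0.0543). Replicate numbers did not pair the libraries. Depth limits Ltbr, with 0 to 27 counts outside the Notch-labelled libraries, and Fas in lymphoma, with 12 and 17.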
